A study of Homo sapiens with 12 samples.

Results

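Elements of the ERVL family of human endogenous retroviruses, other than the MLT2, HERVL18 and LTR18 groups, were followed in RNA crosslinked to the nuclear RNA-binding protein ZC3H18. A member was any element annotated by RepeatMasker to the family ERVL exactly, with a name outside those 3 groups, and only reads on the element's own strand were used. Choosing members used names alone and no measured value. Across the 12 libraries, 42158 of the 1509971 listed elements of 6 repeat classes were members, in 105 subfamilies. Of these, 11598 elements in 18 subfamilies were internal parts, with names ending in -int, and 30560 elements in 87 subfamilies were long terminal repeats (LTRs). Single elements were shallow: 376 of the 42158 passed the filter on low counts in at least 1 comparison, 179 internal and 197 LTR, and statements on loci below cover those alone. Summed by subfamily, all 18 internal and 79 of the 87 LTR subfamilies passed in at least 1 comparison.

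The RNA came from A375, an established human melanoma cell line, transiently transfected with a V5-tagged construct and labelled 24 hours later with 4-thiouridine (4sU), a uridine analogue that crosslinks to bound protein under UV light. RNA pulled down with the V5 antibody was depleted of ribosomal RNA and sequenced with strand, a form of PAR-CLIP. Clover, a fluorescent protein, was the control. Z18fl was full-length ZC3H18, Z18trunc the truncated protein, and Z18truncZnFmut the truncated protein with aromatic residues of its zinc finger mutated, each with 3 libraries. All 4 constructs were overexpressed from a plasmid in cells that keep their own ZC3H18. The labels do not say whether the 3 libraries came from separate cultures, so p-values measure the spread between libraries only. Cell identity and construct levels could not be checked in files that hold repeats alone, and without matched input RNA a higher count cannot be told apart from more RNA of that element.

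ERVL is an old family of class III endogenous retroviruses, related to foamy viruses and lacking an envelope gene. Its internal parts hold remnants of gag and pol, and its LTRs carried the promoter and the polyadenylation signal and mostly persist as solitary copies. In mouse the related MERVL elements are switched on in the cleavage-stage embryo. HERVL-int, the leading human internal part, is flanked by MLT2 LTRs, which are outside the set. ZC3H18 links the cap-binding complex of nuclear RNA to the exosome, the nuclease complex that degrades nuclear transcripts.

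The sequences below are from hg38, 5′ to 3′ on the strand of the element. The first is shown because it is nearly identical to the member locus with the largest difference from Clover, which is another copy. The other 3 are shown because they lead their subfamilies in a rise or a fall. The first is the start of an ERV3-16A3_I-int copy (chr17:43264493-43264792, minus strand) in an intron of CCDC200, within the tandem array of U2 small nuclear RNA genes. The capital T marks the 1 base in the whole 360 base copy that has no counterpart in a copy in another unit of the array (chr17:43288119-43288477). The copies are 99.7% identical, so that nearly all reads map to both.
ERV3-16A3_I-int, U2 array: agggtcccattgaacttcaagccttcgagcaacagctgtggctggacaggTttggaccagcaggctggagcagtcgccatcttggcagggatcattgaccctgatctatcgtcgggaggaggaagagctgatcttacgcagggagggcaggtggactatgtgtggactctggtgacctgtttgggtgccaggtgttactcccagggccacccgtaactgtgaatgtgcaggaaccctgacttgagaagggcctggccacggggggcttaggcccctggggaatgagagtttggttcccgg
In the other 3, capitals mark runs of 4 or more T, which are runs of U in the RNA, the base that 4sU replaces. HERVL-int is shown at the start of an intergenic element (chr4:33735797-33736036, minus strand), ERVL-B4-int at the start of an element in an intron of LINC02109 (chr5:28847810-28848049, plus strand), and ERVL-E-int at the start of an intergenic element (chr3:140879129-140879368, plus strand).
HERVL-int, chromosome 4: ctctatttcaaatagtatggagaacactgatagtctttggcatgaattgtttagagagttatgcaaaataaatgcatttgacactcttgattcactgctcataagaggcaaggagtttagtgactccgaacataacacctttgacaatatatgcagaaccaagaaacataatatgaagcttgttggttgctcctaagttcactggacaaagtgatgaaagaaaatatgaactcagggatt
ERVL-B4-int, chromosome 5: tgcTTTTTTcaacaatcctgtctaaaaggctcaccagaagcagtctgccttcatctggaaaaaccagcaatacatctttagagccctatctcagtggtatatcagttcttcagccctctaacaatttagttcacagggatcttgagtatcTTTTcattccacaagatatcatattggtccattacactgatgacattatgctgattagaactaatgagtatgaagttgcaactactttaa
ERVL-E-int, chromosome 3: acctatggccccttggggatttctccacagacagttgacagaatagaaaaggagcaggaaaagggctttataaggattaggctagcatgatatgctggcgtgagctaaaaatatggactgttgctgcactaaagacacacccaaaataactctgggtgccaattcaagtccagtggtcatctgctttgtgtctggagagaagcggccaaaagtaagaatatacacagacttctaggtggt
The ERVL-B4-int stretch holds 2 such runs and the HERVL-int and ERVL-E-int stretches hold none. TTTT on the element's strand was in the first 240 bases of 60.4% of the 202 member loci at least that long in the comparison of Z18fl with Clover, against 30.1% of all 9933 such loci. The median log2 fold change was 0.33 with TTTT and 0.49 without it over internal parts, and -0.30 and -0.35 over LTRs. For Z18trunc against Clover it was -0.30 and -0.08 over internal parts and -0.50 and -0.41 over LTRs. Internal parts and LTRs with TTTT were thus not set apart in 1 direction. Over all loci that long the median was 0.26 with TTTT and 0.07 without it for Z18fl against Clover, and 0.13 and 0.06 for Z18trunc.

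The libraries held 16683132 to 25686948 aligned fragments, of which 660648 to 2183589 were counted on elements. Z18truncZnFmut replicate 3 stood apart. It listed 27006 member elements, against 3148 to 9227 in the other 11 libraries, with 2.01 counts per listed member against 2.70 to 4.12. The 9227 and the 2.70 were both of Z18trunc replicate 3, and the remaining libraries had 3148 to 6398 and 3.36 to 4.12. Z18trunc replicate 3 thus differed in the same direction, by less, and also gave the highest Z18trunc sums below. Sums and counts of calls of Z18truncZnFmut against Clover are therefore also given without this library. Its fold changes at single loci and subfamilies include it unless stated.

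In every Z18fl and Z18trunc library the internal parts took more of the aligned fragments than in any Clover library. Internal parts summed to 319, 280 and 282 counts per 1000000 aligned fragments (CPM) in the Clover libraries. The Z18fl libraries gave 413, 415 and 431 CPM and the Z18trunc libraries 371, 386 and 432 CPM, without overlap with Clover. Z18truncZnFmut gave 360 and 337 CPM in replicates 1 and 2, also above Clover, and 814 CPM in replicate 3.

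LTRs differed less from Clover. They gave 479, 422 and 423 CPM in Clover and 507, 496 and 513 CPM with Z18fl, and the Z18trunc libraries gave 488, 509 and 619 CPM. Z18truncZnFmut gave 477 and 529 CPM in replicates 1 and 2, the first within the Clover range, and 1427 CPM in replicate 3. For Z18fl the log2 ratio of mean CPM to Clover was 0.52 over internal parts and 0.20 over LTRs, and for Z18trunc it was 0.43 and 0.29. For Z18truncZnFmut it was 0.78 and 0.88, and 0.25 and 0.19 without replicate 3.

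Set against the other repeats, LTRs took a smaller share in every Z18fl and Z18trunc library than in any Clover library. LTRs made up 1.14%, 1.09% and 1.11% of element counts in Clover and 0.979%, 1.01% and 0.932% in Z18fl. In Z18trunc they made up 0.878%, 0.894% and 1.06%. Internal parts made up 0.761%, 0.725% and 0.741% in Clover and 0.798%, 0.842% and 0.783% in Z18fl, and 0.668%, 0.678% and 0.741% in Z18trunc. Internal counts per 100 LTR counts were 66.5, 66.3 and 66.8 in Clover and 81.5, 83.7 and 84.0 with Z18fl, while Z18trunc had 76.0, 75.9 and 69.7, so that both constructs lay above Clover in every library. Z18truncZnFmut gave 75.5, 63.8 and 57.1, on both sides of Clover. These sums over members are descriptions with no test.

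**Figure D1:**
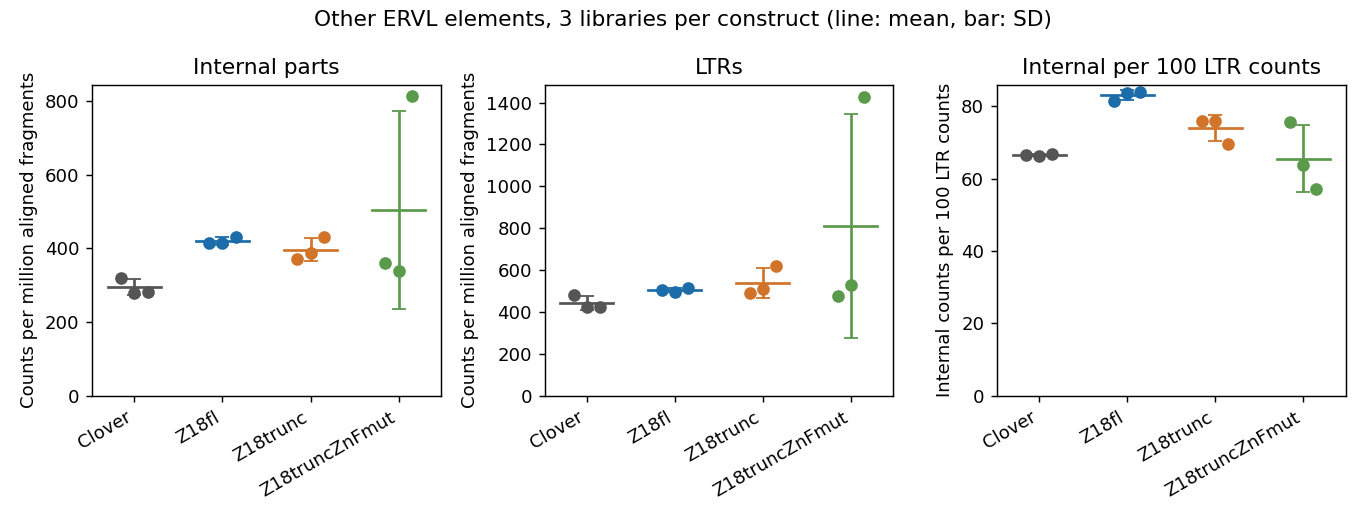
Sense counts of ERVL internal parts and LTRs per 1000000 aligned fragments, and internal counts per 100 LTR counts, in each of the 12 libraries (points) with the mean ± SD of each construct (bars). Internal parts lie above Clover in all 9 ZC3H18 libraries, and Z18truncZnFmut replicate 3 lies far above the rest at 814 CPM internal and 1427 CPM LTR.

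Fold changes below are scaled by TMM, which sets most elements near 0, so that "lower" means lower relative to the other elements. With aligned fragments as the library size, the median over every locus tested went from 0.01 to 0.48 on the log2 scale for Z18fl against Clover, from -0.03 to 0.39 for Z18trunc and from -0.05 to 0.24 for Z18truncZnFmut. The 3 comparisons with Clover share its libraries.

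The question behind the first comparison was which elements full-length ZC3H18 brings down beyond the control. Of the 18 internal subfamilies, 3 were higher in Z18fl than in Clover and 4 were lower, while 20.1% of all 914 subfamilies tested were higher and 20.1% lower, 40.3% together. No LTR subfamily of the 74 tested was higher and 18 were lower. With aligned fragments as the library size the direction turned, and 31 member subfamilies were higher and 5 lower. The median log2 fold change was 0.27 over internal subfamilies, -0.20 over LTR subfamilies and -0.01 over all subfamilies.

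HERVL-int had the most counts of the 3 that rose. It gave 62.0, 60.9 and 58.3 CPM in Clover and 121, 123 and 131 CPM in Z18fl, without overlap, and rose by 0.57 (SE 0.07, edgeR adjusted p = 6.12e-06). Z18trunc lay between them at 91.7, 90.3 and 97.3 CPM, and Z18truncZnFmut gave 84.8 and 76.5 CPM in replicates 1 and 2 and 182 CPM in replicate 3. The rise did not rest on a few copies: without its 6 leading loci the group means were 53.3 CPM for Clover and 96.1 CPM for Z18fl, with Z18trunc at 73.0. Z18truncZnFmut then gave 68.0 and 63.1 CPM in replicates 1 and 2 and 168 CPM in replicate 3. ERVL-B4-int rose from 24.0, 26.0 and 22.7 CPM in Clover to 43.6, 44.7 and 46.8 CPM in Z18fl, a log2 fold change of 0.42 (SE 0.08). MER21-int, the internal part of the MER21 elements, was rarer, with 2.21 to 3.54 CPM in Clover and 6.71 to 7.10 in Z18fl, and rose by 0.73 (SE 0.16).

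MER68-int fell furthest among the internal parts. It gave 17.4, 14.2 and 14.7 CPM in Clover and 9.07, 9.13 and 10.4 CPM in Z18fl, so that it was lower in CPM as well, with a log2 fold change of -1.16 (edgeR adjusted p = 1.49e-07). HERVL74-int also lay lower in CPM, at 7.85 to 8.83 in Clover and 5.33 to 6.21 in Z18fl, with a log2 fold change of -1.05. HERVL40-int was called lower at -0.63, with CPM of 25.6 to 31.4 in Clover and 24.0 to 26.9 in Z18fl, ranges that overlap. ERVL-E-int was called lower at -0.35, although its CPM of 59.4 to 62.2 in Z18fl lay within the 50.2 to 63.5 of Clover. With aligned fragments as the library size its sign turned, to 0.12. The 5 leading loci supplied 61.3% of the counts of MER68-int, 71.0% of HERVL74-int, 53.8% of HERVL40-int and 17.8% of ERVL-E-int. These falls were not recomputed without those loci.

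The other 11 internal subfamilies did not pass the test against Clover in Z18fl. ERV3-16A3_I-int, the subfamily with the most counts in Clover, had a log2 fold change of 0.04 (SE 0.07) and is taken up below for the copies in the U2 array. HERV16-int had 0.30 and MER70-int 0.30. ERVL-int, ERVL47-int, HERVL32-int, HERVL66-int, LTR52-int, LTR53-int, LTR57-int and MER76-int lay between -0.28 and 0.64, and most had under 10 CPM in every library outside Z18truncZnFmut replicate 3.

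**Figure D2:**
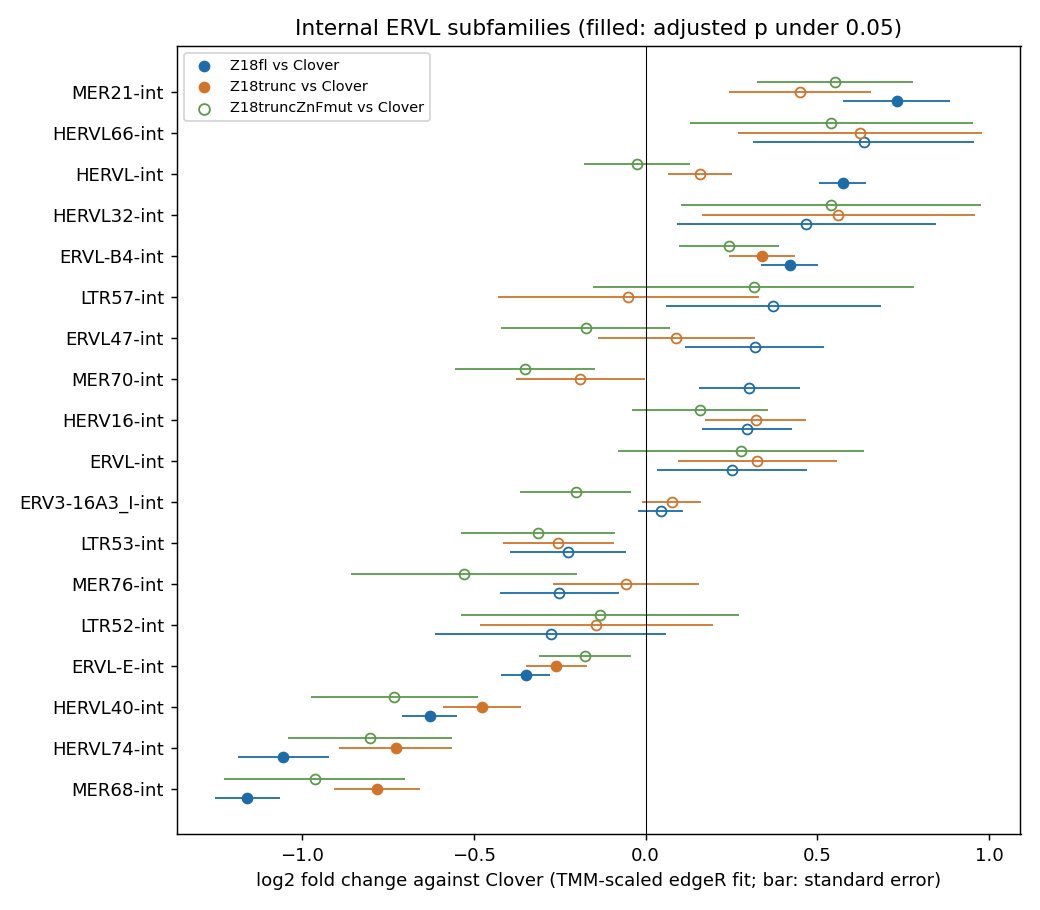
Log2 fold change (± SE) of each of the 18 ERVL internal subfamilies against Clover, for Z18fl, Z18trunc and Z18truncZnFmut, after TMM scaling. MER21-int, HERVL-int and ERVL-B4-int lie highest among those called for Z18fl (0.73, 0.57 and 0.42) and MER68-int lowest (-1.16).

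Among LTRs the lower calls were spread over the groups of names. The LTR16 group, old LTRs shared among mammals, had 7 of 11 subfamilies lower and a median of -0.36. LTR33 had 2 of 5 lower, MER21 1 of 3, MER54 1 of 2, the older MER LTRs 1 of 12, and the rest 6 of 41. LTR41B fell furthest among those with at least 100 mean counts, by 0.90 on the log2 scale, from 21.2, 20.2 and 19.2 CPM in Clover to 15.9, 13.3 and 15.6 CPM in Z18fl. LTR16 had -0.74, LTR32 -0.62, MER54A -0.60, LTR16A1 -0.56 and LTR101_Mam -0.48. For LTR32, MER54A, LTR16A1 and LTR101_Mam the CPM of Z18fl overlapped that of Clover, and each lost its call in 1 of 11 alternatives. Single copies weighed heavily here: 1 element supplied 40.0% of LTR16 counts and 33.7% of LTR41B counts.

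For Z18trunc against Clover, 13 member subfamilies passed, 2 higher and 11 lower. With aligned fragments as the library size 22 passed and all 22 were higher, so that the direction of these calls holds only relative to the other elements. Of the internal parts, ERVL-B4-int alone was higher, at 0.34 (edgeR adjusted p = 0.013), and ERVL-E-int (-0.26), HERVL40-int (-0.48), HERVL74-int (-0.73) and MER68-int (-0.78) were lower, while 15.7% of all subfamilies were higher and 11.0% lower, 26.7% together. HERVL-int had 0.16 (SE 0.09, edgeR adjusted p = 0.262). ERVL-E-int turned sign here too with aligned fragments as the library size, to 0.21, and lost its call with the replicate block (adjusted p = 0.0918) and without Clover replicate 1 or 3 or Z18trunc replicate 1 or 2 (0.0574 to 0.165). ERVL-B4-int lost its call in 5 of 11 alternatives (adjusted p up to 0.140). Of 75 LTR subfamilies 1 was higher and 7 lower, among them MER54A (-0.80), LTR41B (-0.61), LTR16 (-0.52) and LTR16A1 (-0.51). The CPM of LTR41B, LTR16 and LTR16A1 overlapped that of Clover, while that of MER54A lay below it. Each of these named calls was lost in 1 of 11 alternatives.

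In Z18truncZnFmut none of the 93 subfamilies differed from Clover by edgeR, and 1.3% of all subfamilies did. The lowest adjusted p was 0.115, 10 had an unadjusted p under 0.05, and DESeq2 called 3. Without replicate 3, edgeR called 5, all lower.

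At single loci the internal parts passed at a share near that of all loci, and most LTR calls were lower. In Z18fl against Clover 34 of 117 internal loci rose and 27 fell, while 9 of 124 LTR loci rose and 39 fell. Of all 12098 loci 28.3% rose and 24.6% fell, 52.9% in all. The median log2 fold change was 0.25 over internal loci, -0.31 over LTR loci and 0.01 over all. With aligned fragments as the library size 51 internal loci rose and 16 fell, and the LTR loci split into 22 and 21. ERVL-MaLR loci, nonautonomous relatives of ERVL, had 171 higher and 136 lower of 619 with a median of 0.01, and ERV1 loci had 180 higher and 275 lower of 865 with a median of -0.24.

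HERVL-int held 18 of the 34 internal loci that rose. Of its 46 loci tested 18 were higher and 2 lower, with a median of 0.62. Among the MLT2 LTRs, a group of 12 subfamilies by name, none of the 25 loci was higher and 3 were lower. These MLT2 loci were not divided by whether they flank a HERVL-int copy. The longest HERVL-int copies moved most: 7 of the 10 copies of at least 5000 bp rose, with a median of 1.63, against 11 of 36 shorter copies with a median of 0.50. The difference between these length classes was not tested, and the 5000 bp limit was chosen after the values were seen. Over all 12098 loci the log2 fold change also rose with length (Spearman rho 0.35).

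The HERVL-int element at chr4:33730705-33736036 (minus strand, 5332 bp, between genes), whose start is printed above, was high in Z18fl. Clover had 5, 15 and 10 counts there and Z18fl 141, 199 and 185. The truncated protein had 30, 38 and 35 and its zinc finger mutant 34, 32 and 26. Every Z18fl library lay above every other library. The log2 fold change of Z18fl was 3.28 over Clover (SE 0.29, edgeR adjusted p = 9.28e-08), and that of Z18trunc was 0.95 (adjusted p = 0.0611).

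A HERVL-int element in an intron of TMEM117 (chr12:44044208-44045561) was also highest in Z18fl, at lower depth. Like the chromosome 4 element, it was named after its values were seen. Clover had 0, 1 and 1 counts there and Z18fl 20, 20 and 29, while Z18trunc had 4, 6 and 9 and Z18truncZnFmut 9, 4 and 2. With 2 counts in all of Clover, the ratio of Z18fl to Clover in CPM was 24.7, with a 95% interval for counting error of 6.59 to 208.

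Other internal copies were as high with the truncated protein as with the full-length one. HERVL-int in an intron of MTAP (chr9:21847327-21850874, plus strand), which encodes a methionine salvage enzyme, had 24, 15 and 30 counts in Clover. Z18fl held 121, 158 and 203 counts on it, Z18trunc 154, 145 and 187, and Z18truncZnFmut 110, 88 and 104. All 3 ZC3H18 constructs lay above Clover in every library, by 1.95, 2.0 and 1.49 on the log2 scale, each past the test.

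ERVL-B4-int at chr5:28847810-28850379 (2570 bp), in an intron of the long noncoding RNA LINC02109, had 40, 42 and 34 counts in Clover and 262, 209 and 355 in Z18fl. It had 291, 287 and 254 in Z18trunc and 223, 129 and 186 in Z18truncZnFmut, with log2 fold changes over Clover of 1.97, 2.01 and 1.55. This copy supplied 19.7% of its subfamily's counts, and without it ERVL-B4-int still averaged 22.0 CPM in Clover, 33.6 in Z18fl and 31.1 in Z18trunc. HERVL40-int in an intron of TRMT11, a tRNA methyltransferase subunit gene, had 1, 2 and 2 counts in Clover and 22, 24 and 25 in Z18fl.

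Falls were on other copies, both between genes and in exons. ERVL-E-int at chr3:140879129-140879830 (702 bp, between genes) had 242, 202 and 252 counts in Clover and 109, 104 and 102 in Z18fl, no library overlapping, a log2 fold change of -1.98 (edgeR adjusted p = 2.22e-08). Z18trunc was between them at 187, 204 and 195 (-1.07), and Z18truncZnFmut at 356, 244 and 186 did not pass the test (-0.47, adjusted p = 0.0755). ERV3-16A3_I-int in an exon of OAS3, an interferon-induced antiviral gene (chr12:112972697-112972875, wholly in UTR), had 301, 301 and 332 counts in Clover and 192, 192 and 261 in Z18fl. The Z18trunc libraries held 372, 441 and 420 counts and the Z18truncZnFmut libraries 312, 319 and 233. Its log2 fold changes over Clover were -1.39, -0.42 and -0.74, all past the test. The Z18trunc call was lost in 4 of 11 alternatives (adjusted p up to 0.829), and the CPM of Z18trunc overlapped that of Clover, with a ratio of 0.948 and a 95% interval for counting error of 0.870 to 1.03.

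LTR copies fell both in exons and antisense to genes. LTR16 in an exon of ZNF343, a zinc finger gene (chr20:2482365-2482683), had 204, 189 and 171 counts in Clover and 143, 129 and 158 in Z18fl, with log2 fold changes over Clover of -1.24, -0.84 and -0.63 for Z18fl, Z18trunc and Z18truncZnFmut, the last call lost in 5 of 11 alternatives. LTR41B in an exon of DHCR7, the last enzyme of cholesterol synthesis (chr11:71434772-71434957), had 146, 140 and 142 counts in Clover and 97, 100 and 103 in Z18fl, with -1.35, -0.66 and -0.89. Further falls in Z18fl named by rule were MER68-int in DCTN5 (-1.63), LTR16B2 antisense to CRMP1 (-1.71) and HERVL74-int in ZNF778 (-1.37). LTR16B2 in an exon of ZNF337 was lower in Z18trunc (-0.93), a call lost in 7 of 11 alternatives. In Z18trunc 9 of 108 internal loci rose and 20 fell, and among 132 LTR loci 3 rose and 33 fell, against 22.5% and 13.4% of all loci, 35.9% in either direction. Together that is 12 members higher and 53 lower, and with aligned fragments as the library size 27 were higher and 13 lower. In Z18truncZnFmut 5 of 87 internal loci rose and 5 fell, and among 105 LTR loci 1 rose and 10 fell, against 12.3% and 4.83% of all loci, 17.1% in either direction. Their 6 higher and 15 lower became 11 and 3 with aligned fragments as the library size. Without Z18truncZnFmut replicate 3, 5 members were higher and 9 lower.

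**Figure D3:**
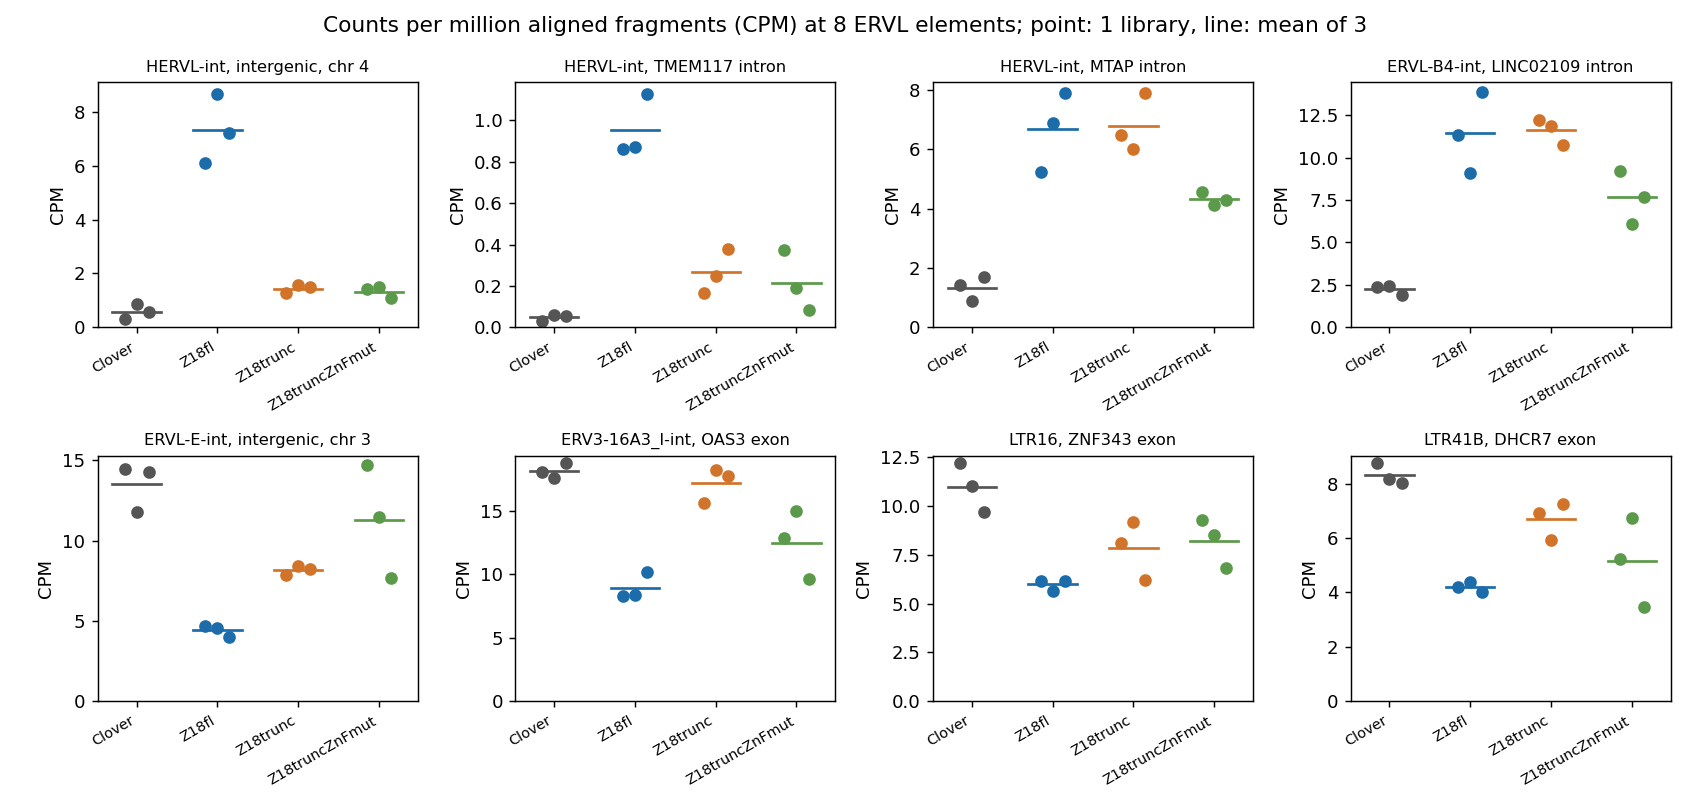
Counts per 1000000 aligned fragments of 8 single ERVL elements in each library (points), by construct. The HERVL-int element on chromosome 4 is highest in Z18fl. The MTAP HERVL-int and the chromosome 5 ERVL-B4-int are above Clover in all 9 ZC3H18 libraries, and the chromosome 3 ERVL-E-int is lowest in Z18fl.

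Rises and falls of internal parts divided by where the copy sits in a gene. Of the 34 internal loci higher in Z18fl, 22 were in introns, 10 between genes, 2 antisense to a gene and 0 in exons, with a median length of 1975 bp and a median divergence from their consensus of 13.85%. Of the 27 lower internal loci 18 were in exons, all 18 of them mostly in UTRs and 8 in zinc finger genes, with a median length of 547 bp and a divergence of 24.7%. Of the 39 lower LTR loci 24 were in exons, 19 mostly UTR and 9 in zinc finger genes. The 9 higher LTR loci did not follow this division, with 4 in exons and 5 in introns. Of all loci tested 29.6% were in exons and 2.53% in exons of zinc finger genes, and of all 2981 lower loci 51.0% and 6.21% were. Among the members tested, exons held 24 internal and 56 LTR loci, of which 8 and 15 were in zinc finger genes.

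The same split ran through all repeats. Over all loci tested the median log2 fold change was -0.62 in exons and 0.64 in introns. The 80 member loci in exons had a median of -0.76, with 4 higher and 42 lower, and the 79 in introns a median of 0.59, with 27 higher and 9 lower. Between genes 10 of 59 were higher and 5 lower, and antisense to genes 2 of 23 were higher and 10 lower. By length, the 75 members of at least 1000 bp, all internal, had 28 higher and 9 lower with a median of 0.56, below the 0.97 of all loci that long, and the 166 shorter members had 15 higher and 57 lower. Across loci the log2 fold change of internal parts rose with length (Spearman rho 0.41 over 117 loci), as over all 12098 loci (rho 0.35). It followed AT content over all loci (rho 0.25) more than over the members (rho 0.06, 241 loci). Loci of 1 library share its depth, so these are descriptions.

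**Figure D4:**
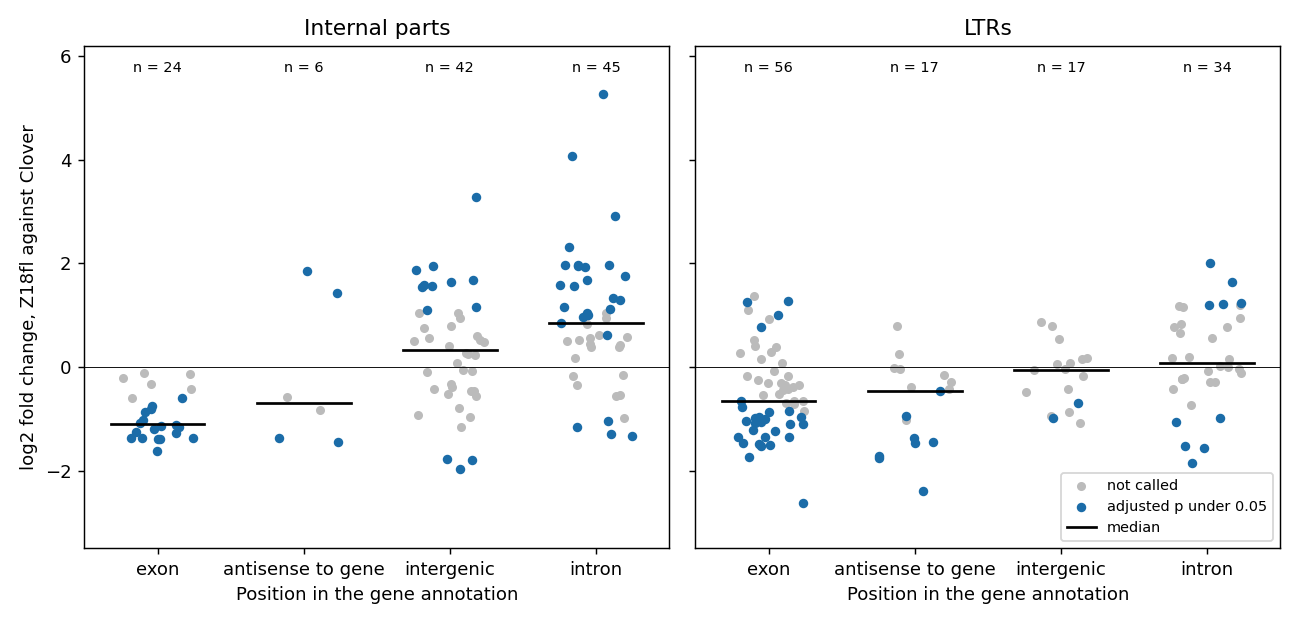
Log2 fold change of Z18fl against Clover for each member locus tested (points), by gene context, internal parts and LTRs apart. Exonic loci lie mostly below 0 (24 internal, 56 LTR) and intronic internal loci mostly above (45 loci, median 0.86).

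The member locus with the largest difference from Clover was a copy of ERV3-16A3_I-int in the U2 array. The array holds 12 annotated U2 genes at chr17:43239921-43300231, on the minus strand in an intron of CCDC200. U2 is the small nuclear RNA that pairs with the branch point in splicing. ERV3-16A3_I-int has 6 annotated copies among the repeats. The copy that took most reads (chr17:43288119-43288477) starts 1813 bases downstream of the nearest U2 gene, and the printed copy 1840 bases downstream, on the same strand.

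Because the copies are nearly identical, the authors' software divides their reads by an estimate, and the division varied between libraries. The most-counted copy had 13, 3 and 6 counts in Clover and 605, 350 and 612 in Z18fl. Z18trunc held 479, 312 and 483 on it and Z18truncZnFmut 126, 193 and 44. The printed copy had 208, 40 and 113 in Z18truncZnFmut, lowest in replicate 2, where the most-counted copy was highest. The sum over the 6 copies is therefore the steadier value, and it was chosen after the values were seen.

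Summed, the copies had 46, 60 and 43 counts in Clover and 667, 525 and 711 in Z18fl. Z18trunc held 509, 472 and 552 on them and Z18truncZnFmut 334, 233 and 168. Per 1000000 aligned fragments Clover was lowest in every library, Z18truncZnFmut lay above it and below the rest, and Z18trunc and Z18fl overlapped, at 19.5 to 23.3 and 22.9 to 28.8 CPM. Means were 2.90 ± 0.57 CPM for Clover, 26.5 ± 3.1 for Z18fl, 21.4 ± 1.9 for Z18trunc and 10.6 ± 3.5 for Z18truncZnFmut (SD, n = 3), which is 9.12, 7.38 and 3.64 times Clover. No more than 14 reads per library mapped there uniquely.

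In Clover the printed copy took more reads than the most-counted copy (33, 56 and 25 counts), and in Z18fl fewer (23, 176 and 99). Fold changes of 1 copy therefore include this division of reads, while the sum over the copies in Z18fl was 9.12 times Clover. For the most-counted copy alone, the log2 fold change over Clover was 5.28 for Z18fl, 5.02 for Z18trunc and 3.44 for Z18truncZnFmut. Between Z18truncZnFmut and Z18trunc it was -1.57 (SE 0.31, edgeR adjusted p = 0.022), the only member locus called in that comparison. Under DESeq2 the adjusted p was 0.163, and without Z18trunc replicate 1 or 3 it was 0.181 or 0.110. Without Z18truncZnFmut replicate 3 it was 0.0243. The printed copy had 30, 156 and 69 counts in Z18trunc and 208, 40 and 113 in Z18truncZnFmut, so the tested value depends on the division of reads. The sum over the copies, with means of 21.4 CPM in Z18trunc and 10.6 CPM in Z18truncZnFmut, was not tested.

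In Z18fl the array copies made up most of the difference of their subfamily from Clover. ERV3-16A3_I-int gave 73.8, 65.2 and 65.6 CPM in Clover and 99.5, 93.2 and 99.4 CPM in Z18fl. Z18trunc gave 91.2, 97.4 and 110 CPM and Z18truncZnFmut 85.1, 79.5 and 171. Without the array copies it gave 71.1, 61.7 and 63.2 CPM in Clover and 70.7, 70.3 and 71.8 in Z18fl, ranges that overlap. Z18trunc without the copies still gave 69.8, 77.8 and 86.7 CPM, 2 of its libraries above all of Clover, and Z18truncZnFmut gave 71.3, 68.6 and 164 CPM, the last in replicate 3. Over all internal parts, leaving the copies out moved the log2 ratio of Z18fl to Clover from 0.52 to 0.44.

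**Figure D5:**
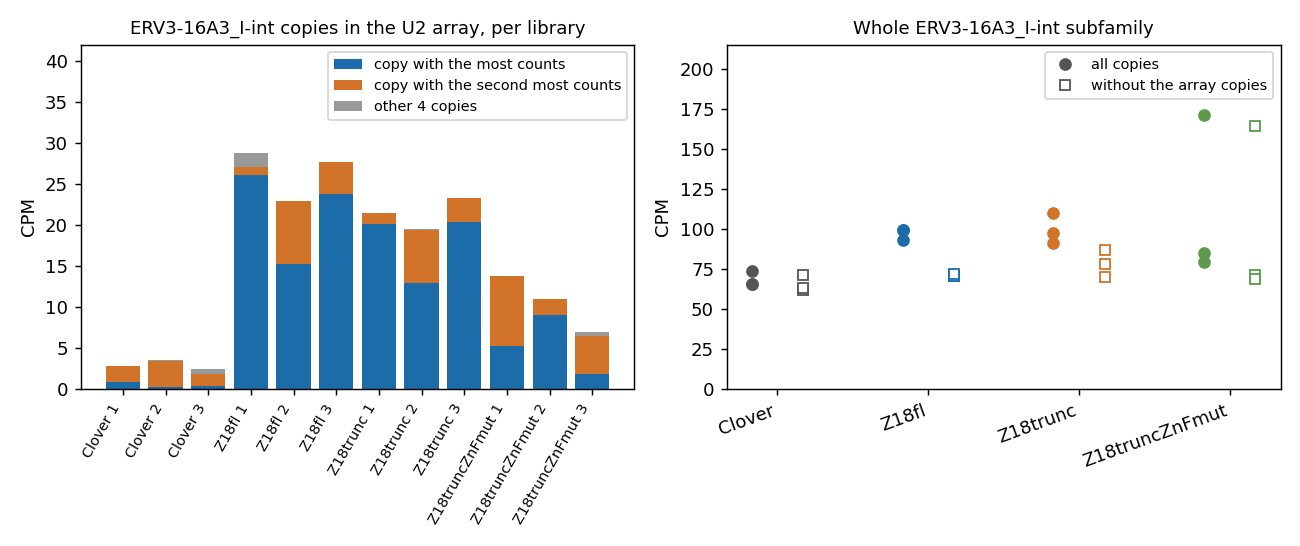
Counts per 1000000 aligned fragments on the ERV3-16A3_I-int copies of the U2 array, stacked by copy, in each library, and the whole subfamily with and without these copies. The summed copies reach 22.9 to 28.8 CPM in Z18fl against 2.41 to 3.54 in Clover, and the subfamily without them is near 70 CPM in all 3 Z18fl libraries.

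Z18trunc was compared with Z18fl to see what the truncation changes. Of the 96 member subfamilies 2 were lower and none higher, both internal, against 2.22% lower and 1.48% higher of all subfamilies, 3.7% together. HERVL-int was lower by 0.47 on the log2 scale (SE 0.07, edgeR adjusted p = 0.00406), with every Z18trunc library (90.3 to 97.3 CPM) below every Z18fl library (121 to 131 CPM). With the replicate number as a block the value was -0.47 and the adjusted p 0.0742. MER70-int gave 3.57 to 4.33 CPM in Z18trunc and 5.18 to 6.27 in Z18fl, at -0.55 (adjusted p = 0.040), and lost its call in all but 2 of the alternatives tried.

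At loci the difference was again on HERVL-int. Of 165 internal loci 2 rose and 13 fell, and among 177 LTR loci 2 rose and 5 fell, while 2.62% of all loci rose and 3.13% fell, 5.74% together. HERVL-int supplied 12 of the 13 lower internal loci, from 63 tested with a median of -0.67, and the other was an ERV3-16A3_I-int element on chromosome 20. Of the 14 HERVL-int copies of at least 5000 bp, 5 were lower and none higher, with a median of -0.99. The chromosome 4 element fell by 2.43 (SE 0.20, edgeR adjusted p = 4.17e-07) and the TMEM117 element by 1.90, while the MTAP element did not differ past the test, at -0.04. ERVL-MaLR loci had 11 higher and 66 lower of 948, and ERV1 loci 41 higher and 47 lower of 1127.

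HERVL-int between genes at chr13:109219329-109224969 (5641 bp) had 80, 74 and 84 counts in Z18fl and 23, 30 and 30 in Z18trunc (-1.59). HERVL-int in an intron of UBE3D (chr6:83010975-83016556) had 69, 81 and 85 in Z18fl and 45, 43 and 19 in Z18trunc (-1.22). Both pairs of groups were apart in every library.

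The 4 loci higher in Z18trunc than in Z18fl had each been called lower in Z18fl than in Clover, and both comparisons use the same Z18fl libraries. OAS3 ERV3-16A3_I-int rose by 0.87, the chromosome 3 ERVL-E-int by 0.81, DHCR7 LTR41B by 0.60 (lost in 7 of 11 alternatives) and MER77 antisense to ZNF444 by 1.86. The last had 14, 33 and 15 counts in Clover, 12, 3 and 6 in Z18fl and 29, 26 and 26 in Z18trunc. Among the lower LTR loci, LTR41B in EIF3C had no uniquely mapping read in any library, and its counts depend on the division of reads with near-identical copies.

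Z18truncZnFmut was compared with Z18trunc to see what the zinc finger mutation changes. None of the 97 member subfamilies differed, as none of all subfamilies did, by edgeR, 2 had an unadjusted p under 0.05, and DESeq2 called 0. At loci 1 of 130 internal and 0 of 152 LTR loci differed, against 0.368% higher and 0.351% lower of all loci, 0.719% together. That one was the most-counted U2 array copy, which fell. Its value depends on how reads were divided among the near-identical copies. HERVL-int had a log2 fold change of -0.12 (SE 0.14) and ERVL-B4-int -0.03 (SE 0.13). The standard error of HERVL-int in this comparison was wider than the 0.07 of Z18trunc against Z18fl.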

How the data were processed

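PAR-CLIP RNA from 12 A375 libraries, 3 per construct, was analysed as deposited, and groups came from the sample titles. Per the labels and the study's methods, the authors trimmed reads (cutadapt 4.6 per the submitters' processing notes) and assigned them with SQuIRE to annotated elements of hg38, by strand, without pooling. The deposited totals are expected counts, in which multimapping reads are divided by expectation maximization. The deposited uniquely mapping reads and the aligned fragments are counts. The deposited score expresses this total as a percent of the reads with any alignment on the element.

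Expected counts were rounded. Each locus, and each subfamily sum, of 6 repeat classes was tested with edgeR 4.0.16 (R 4.3.3; quasi-likelihood, TMM, filterByExpr with minimum count 10 and minimum total 15) on the 6 libraries compared. Benjamini-Hochberg adjustment ran over all features tested, and calls were at adjusted p under 0.05. The fits were tested on simulated data with 200 changed features. CPM divides by aligned fragments. Python 3.11.15 (numpy 2.4.6, pandas 2.3.3, scipy 1.17.1, matplotlib 3.10.9) was used for the rest. Gene context came from GENCODE 44: exon meant at least 50% of the element in exons on its strand.

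Members and lists were chosen with earlier results of these data known. Named subfamilies were every internal one and, among called LTR subfamilies whose higher group averaged 100 counts or more, those with the largest changes. Named loci were called, separated in every library, and averaged 20 counts or more and a score of 90 or more in the higher group, or were among the 5 members or 3 internal members with the most counts. A single rise met the score condition, that of LTR41B in DHCR7 for Z18trunc against Z18fl. Loci named without it, the leading HERVL-int loci, the longer HERVL-int class of 5000 bp and the sum over the U2 array copies were chosen after their values were seen. Intervals of ratios cover counting error only.

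Alternatives were DESeq2 1.42.0, aligned fragments as library size, no filter, uniquely mapping reads only, a replicate block, shares of element counts, and each library left out. Same-numbered libraries of Z18truncZnFmut and Z18trunc deviated together (correlations 0.34 to 0.70 over their 3 pairs). Replicates 1 and 2 also did so across numbers (0.46 and 0.36), and pairs of replicate 3 with another number had -0.47 to -0.72. The correlations therefore cannot show whether the numbers pair the libraries. In the other 4 comparisons no same-numbered pair passed 0.1. Reads antisense to the members were used only where named.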

Additional observations from a re-analysis of the deposited data

Results flagged for a closer look

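Reads antisense to the members were outside the comparisons and lay above the control samples with each ZC3H18 construct. Antisense to internal parts the mean was 212 CPM for Clover (201 to 222), 274 for Z18fl, 268 for Z18trunc and 417 for Z18truncZnFmut, the last with 234 to 761 CPM over its libraries. Antisense to LTRs the mean was 787 CPM for Clover (758 to 843), 961 for Z18fl, 984 for Z18trunc and 1205 for Z18truncZnFmut, the last with 920 to 1740 CPM. LTRs had more antisense than sense counts in every library, at 787 against 442 CPM in Clover and 961 against 506 CPM in Z18fl. The lowest library of each ZC3H18 construct lay above the highest Clover library for both kinds of element. These differences were not tested.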

How the results depend on the processing

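Calls at the named loci and subfamilies were mostly kept: of 938 values under alternatives, over 86 results, 793 kept direction and call, 143 lost the call and 2 turned sign. Both turns were ERVL-E-int with aligned fragments as the library size, to 0.12 in Z18fl and 0.21 in Z18trunc against Clover. The cause of a lost call was not tested unless named.

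Member loci called for Z18fl against Clover numbered 109, and 70 with no filter (more loci share the adjustment), with 84 to 130 when 1 library was left out. For Z18trunc against Clover they numbered 65, and 39 by DESeq2, 40 with aligned fragments (27 higher, 13 lower), 24 with no filter and 42 with unique reads. Leaving out 1 library gave 36 to 74, and the counts under 44 came without Z18trunc replicate 1 (42), 2 (36) or 3 (42). For Z18truncZnFmut against Clover they numbered 21, and 4 with no filter and 11 with unique reads, with 10 to 17 when 1 library was left out, the fewest being 10 and 12 without Z18truncZnFmut replicate 1 or 2 and 12 without Clover replicate 2 (14 without Z18truncZnFmut replicate 3). For Z18trunc against Z18fl they numbered 22, and 11 by DESeq2 and 13 with no filter, with 12 to 20 when 1 library was left out: 12 without Z18fl replicate 2 and 14 without Z18trunc replicate 1 or 2. For Z18truncZnFmut against Z18trunc there was 1, and 3 with no filter and 0 to 2 when 1 library was left out.

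Member subfamilies called for Z18fl against Clover numbered 25 (20 to 27 when 1 library was left out). For Z18trunc against Clover they numbered 13, and 22, all higher, with aligned fragments. Leaving out 1 library gave 8 to 15, with 8 without Clover replicate 3 or Z18trunc replicate 1 or 2. For Z18truncZnFmut against Clover there were 0, and 3 by DESeq2, with 0 to 5 when 1 library was left out (5 without Z18truncZnFmut replicate 3). For Z18trunc against Z18fl there were 2, and 1 each by DESeq2, with aligned fragments and with unique reads, with 1 to 5 when 1 library was left out (5 without Z18trunc replicate 3, and 1 without any other). With the replicate block there were 0. For Z18truncZnFmut against Z18trunc there were 0 under every alternative run.

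The replicate block otherwise gave 94 member loci for Z18fl against Clover, 47 for Z18trunc, 18 for Z18truncZnFmut and 19 for Z18trunc against Z18fl. It gave 1 for Z18truncZnFmut against Z18trunc, the U2 array copy at -1.72.

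Log2 ratios of summed levels were also computed with shares of element counts in place of CPM. For internal parts the share gave 0.12 in Z18fl, -0.094 in Z18trunc and 0.0053 in Z18truncZnFmut against Clover, and -0.22 in Z18trunc against Z18fl. For LTRs it gave -0.20, -0.24 and 0.066 against Clover and -0.041 in Z18trunc against Z18fl. The Z18truncZnFmut shares rested on replicate 3: with replicates 1 and 2 only, chosen after seeing the data, they gave -0.16 for internal parts and -0.22 for LTRs. Unique reads gave 0.30 for LTRs in Z18fl against Clover, and leaving out the U2 array copies 0.44 for internal parts.

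Leaving out 1 library gave 0.48 to 0.58, 0.37 to 0.49 and 0.25 to 1.0 for internal parts against Clover (Z18fl, Z18trunc, Z18truncZnFmut), and 0.16 to 0.26, 0.18 to 0.35 and 0.19 to 1.15 for LTRs. For Z18trunc against Z18fl it gave -0.15 to -0.04 for internal parts and -0.02 to 0.16 for LTRs, and for Z18truncZnFmut against Z18trunc -0.18 to 0.57 and -0.10 to 0.86, the lowest of each without Z18truncZnFmut replicate 3. Depth limited single loci, of which 376 of 42158 could be tested.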
